A study of Mus musculus with 6 samples.

Results

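Mitochondrial ribosomal protein genes were examined in hearts that had lost one of them, *Mrps5*. The members were the protein-coding genes of the expression table whose symbol is Mrps or Mrpl followed directly by a digit, 78 of 54532 genes, with 29 Mrps genes named for the small subunit and 49 Mrpl genes named for the large subunit. The rule uses gene symbols and no expression value. *Mrps5* was set apart as the deleted gene, which left 77 others, of which 76 passed the filter on low values (0.5 FPKM or more on average over the 6 hearts) and *Mrpl53* did not. FPKM, the number of fragments scaled to gene length and library size, is a level per length, and its comparison between genes rests on the gene length used.

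RNA came from 6 mouse hearts, 3 of the control group (Ctrl, *Mrps5* fl/fl) and 3 of the conditional knockout group (cKO, *Mrps5* fl/fl; MCM). Both groups carried the loxP-flanked *Mrps5* alleles, and all mice received tamoxifen by intraperitoneal injection, 45 mg/kg on each of 5 days from 8 weeks of age, with hearts taken 12 weeks afterwards. MCM is MerCreMer, a tamoxifen-inducible Cre recombinase driven by the αMHC promoter in cardiomyocytes, so deletion is limited to these cells while the RNA came from bulk heart tissue, ventricular according to the methods. The Ctrl hearts lacked the MCM transgene, so that loss of *Mrps5* and the presence of active Cre cannot be told apart in these libraries.

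Mitochondria hold their own ribosomes, which translate the few messenger RNAs of the mitochondrial genome, all of them coding for subunits of the oxidative phosphorylation complexes. The ribosomal RNAs are transcribed from mitochondrial DNA, whereas every ribosomal protein is encoded in the nucleus, made in the cytosol and imported. Many of these proteins descend from those of bacterial ribosomes, and others are found only in mitochondria. The heart depends on oxidative phosphorylation for contraction and is rich in mitochondria.

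Promoters of the members are shown first, as a feature of the members that the choice by symbol did not use. Windows of 250 bases before and 50 bases after the start (RefSeq, GRCm38.p6) were at hand for 69 of the 78 members. The letters CCGGAAG, bound by ETS family factors, occurred on either strand in 26 of the 69 windows (37.7%), against 20.3% of 8967 tested protein-coding genes and 9.93% of all 27025 genes with a window. AAGATGGC, the core bound by YY1, occurred in 12 members (17.4%) against 5.36% of tested protein-coding genes and 3.19% of all genes. CGCATGCG, bound by NRF1, a regulator of nuclear genes for mitochondrial proteins, occurred in 7 members (10.1%) against 4.45% and 2.07%. The E-box CACGTG was found in 5 members (7.25%) against 12.1% of tested protein-coding genes and 8.09% of all genes. The cyclic AMP response element TGACGTCA was found in 2 members (2.9%) against 3.51% and 2.03%. TGATGNAA, the element of C/EBP and ATF factors that act in the amino acid stress response, was found in 0 of the 69 member windows, against 2.75% of tested protein-coding genes and 4.51% of all genes. None of the 6 strings contains another. They are matches of letters and not measured binding sites.

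The ETS letters were present in 4 of the 9 windows of members called higher, in 2 of the 16 of members called lower and in 19 of the 42 of members not called. The following stretches are the parts of the windows before the start that hold no annotated exon of any gene, printed 5′ to 3′ on the strand of the gene, with matches to the 6 strings in capitals. Such a stretch of at least 100 bases existed for 40 members, of which 12 held any match. *Mrpl52* (chr14:54426659-54426908, plus strand) and *Mrpl24* (chr3:87919294-87919505, plus strand) are shown as the members called higher with the largest changes among these, and *Mrpl28* (chr17:26123255-26123499, plus strand) and *Mrpl42* (chr10:95501950-95502199, minus strand) as those called lower. *Mrpl22* (chr11:58171414-58171660, plus strand) was the 1 member with more than 1 kind of match, *Mrpl43* (chr19:45006443-45006557, minus strand) holds the ETS letters at 2 places, and *Mrpl10* (chr11:97041408-97041559, plus strand) shows an NRF1 match.
Mrpl52: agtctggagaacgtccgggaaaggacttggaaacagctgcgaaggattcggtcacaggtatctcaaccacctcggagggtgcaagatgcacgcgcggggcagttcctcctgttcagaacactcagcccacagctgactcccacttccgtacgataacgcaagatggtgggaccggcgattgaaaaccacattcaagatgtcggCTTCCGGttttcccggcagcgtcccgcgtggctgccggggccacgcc
Mrpl24: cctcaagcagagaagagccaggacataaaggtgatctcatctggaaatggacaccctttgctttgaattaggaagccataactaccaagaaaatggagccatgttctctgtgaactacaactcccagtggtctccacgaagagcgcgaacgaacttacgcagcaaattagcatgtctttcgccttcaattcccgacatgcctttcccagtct
Mrpl28: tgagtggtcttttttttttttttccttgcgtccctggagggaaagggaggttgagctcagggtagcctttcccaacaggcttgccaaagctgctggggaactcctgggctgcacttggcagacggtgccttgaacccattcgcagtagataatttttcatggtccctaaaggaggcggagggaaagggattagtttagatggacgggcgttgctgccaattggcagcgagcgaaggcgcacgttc
Mrpl42: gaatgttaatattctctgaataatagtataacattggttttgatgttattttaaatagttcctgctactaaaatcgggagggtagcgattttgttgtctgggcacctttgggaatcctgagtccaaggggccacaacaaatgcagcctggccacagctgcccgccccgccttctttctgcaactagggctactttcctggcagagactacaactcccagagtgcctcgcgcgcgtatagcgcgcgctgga
Mrpl22: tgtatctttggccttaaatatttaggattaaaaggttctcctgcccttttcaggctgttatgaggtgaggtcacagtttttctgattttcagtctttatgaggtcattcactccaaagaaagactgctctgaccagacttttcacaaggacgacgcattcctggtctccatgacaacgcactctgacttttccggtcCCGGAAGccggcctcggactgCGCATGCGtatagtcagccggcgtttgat
Mrpl43: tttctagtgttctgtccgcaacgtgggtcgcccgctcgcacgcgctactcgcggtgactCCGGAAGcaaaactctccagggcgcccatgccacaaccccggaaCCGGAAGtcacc
Mrpl10: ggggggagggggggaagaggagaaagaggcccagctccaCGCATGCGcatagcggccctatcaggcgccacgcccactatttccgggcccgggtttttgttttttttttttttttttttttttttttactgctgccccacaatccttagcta
Of the 4 stretches shown for the size of the change, only that of *Mrpl52* holds a match, an ETS string close to the start site. These are not the members that changed most of all, since a long enough stretch was required. *Mrps18b*, with the largest increase, is not among them, and its whole window held NRF1 and ETS matches. The whole window of *Mrpl42* held a YY1 match outside the printed stretch.

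The 6 libraries held 15989322 to 24875499 reads assigned to genes, worked back from the deposited values, and a tested member other than *Mrps5* had between 197 and 6592 reads in a heart. cKO replicate 2 stood apart: it was the 1 heart with *Xist* at 10.7 FPKM and with *Ddx3y*, *Kdm5d*, *Uty* and *Eif2s3y* at 0 (*Xist* was at most 0.127 FPKM in the other 5). This is the pattern of a female heart, whereas the paper reports that all its mice were male. The pattern occurred in the cKO group only, so counts are also given without this heart. Its reads also differed more from those of the other cKO hearts over the table. The mean chi-square per gene was 47.3 against cKO replicate 1 and 44.9 against cKO replicate 3. Between cKO replicates 1 and 3 it was 18.1, and between Ctrl hearts 14.3 to 18.3. The label of heart tissue was borne out by its markers, with 8 cardiomyocyte genes summing to 9680 to 20700 FPKM in every heart. The 4 atrial genes were uneven within each group. They summed to 2050, 289 and 128 FPKM in Ctrl replicates 1, 2 and 3, and to 575, 1350 and 1650 FPKM in cKO. *Myl7*, 1 of them, lay between 18.15 and 678.6 FPKM in Ctrl and between 71.79 and 495 FPKM in cKO. The share of atrial tissue in each heart was not tested. Genes of the mitochondrial genome made up 39.6% to 42.1% of the summed FPKM in Ctrl hearts against 33.3% to 38.0% in cKO hearts.

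*Mrps5*, the target of the deletion, was examined first. The gene (ENSMUSG00000027374, chromosome 2, 127587222 to 127606829 on GRCm38, plus strand, 12 exons in its longest transcript) encodes a small subunit protein with a bacterial counterpart that lies near the mRNA entry site. It measured 5.20, 6.45 and 6.33 FPKM in the Ctrl hearts against 1.12, 1.23 and 1.31 FPKM in the cKO hearts, so every cKO heart lay far below every Ctrl heart (values per heart are given in the order of replicates 1, 2 and 3 throughout). The mean dropped from 5.99 ± 0.690 to 1.22 ± 0.0947 FPKM (SD, n = 3 each), which left 20.4% of the Ctrl level. On the log2(FPKM + 1) scale the change was -1.65 (SE 0.094, limma adjusted p 0.000202). Cells other than cardiomyocytes keep the gene, and in bulk tissue fewer cells of a type and less RNA per cell cannot be told apart. The source of the *Mrps5* reads that remained in cKO was not tested.

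The remaining members neither fell nor rose together. Of the 76 tested, 14 were higher in cKO (18.4%) and 17 were lower (22.4%), beside 16.3% of all 12944 genes called higher and 17.0% called lower (limma, adjusted p under 0.05). Their median log2 fold change was -0.0031, beside -0.016 over all genes tested, and 38 values were negative and 38 positive. In either direction 40.8% of the members were called, beside 33.3% of all genes, and beside 41.8% of the 7273 genes whose mean level was at least that of the lowest tested member. The share called lies near this last background and is no result about the members. Ctrl and cKO hearts did not overlap for 48 members (63.2%), beside 51.2% of all genes and 59.4% of the genes at or above the level of the lowest tested member.

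The changes of the members were mostly small. The median size of the log2 fold change was 0.21, against 0.26 over the genes at or above the level of the lowest tested member. A change of at least 0.5 in size was seen for 11 members (14.5%), 4 higher and 7 lower, against 24.2% of those genes, and 0 members other than *Mrps5* reached 1, against 5.79%. The members ranged from -0.80 (*Mrpl28*) to 0.92 (*Mrps18b*), and the SE of a member lay between 0.064 and 0.137.

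**Figure D1:**
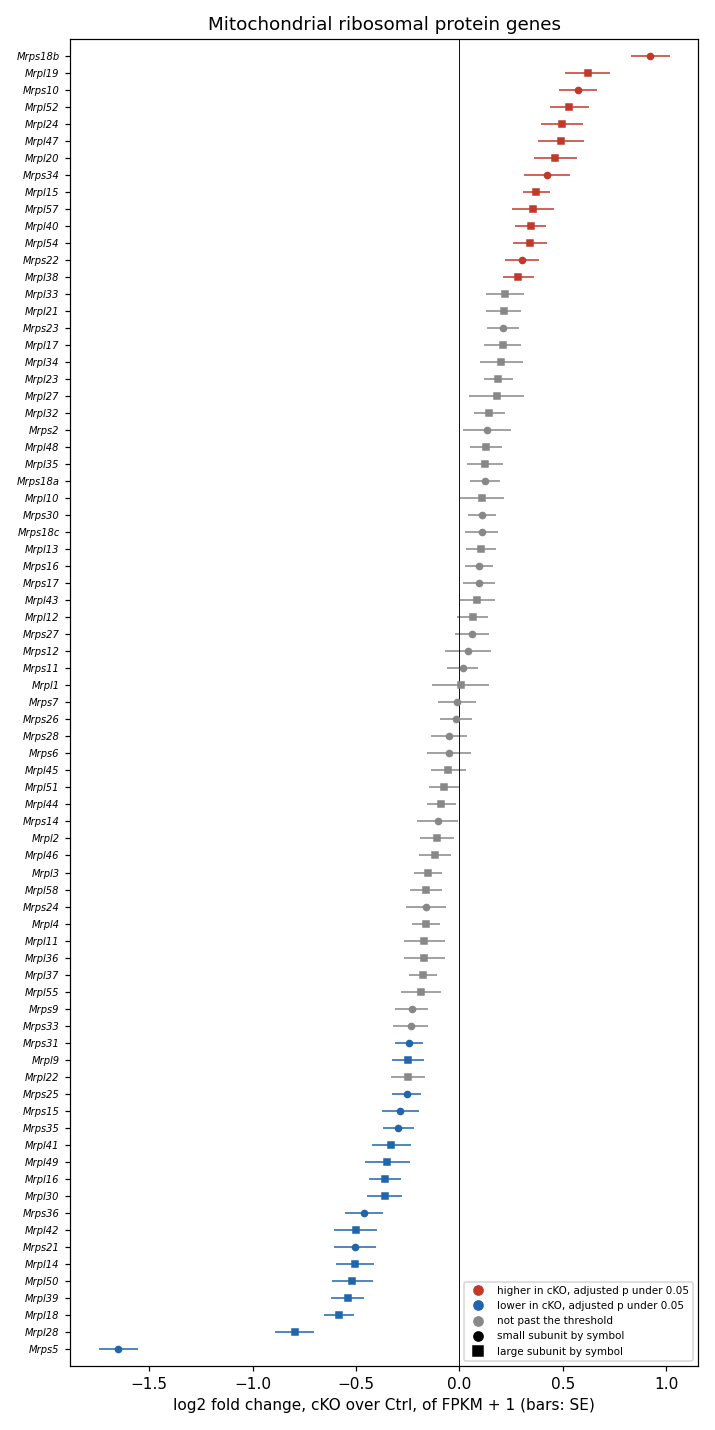
Log2 fold change of FPKM + 1 (cKO over Ctrl, horizontal axis) for each tested member, with SE as bars; circles are Mrps and squares Mrpl genes, red and blue are members past an adjusted p of 0.05. *Mrps5* lies alone at -1.65, and the other 76 spread evenly about 0 from -0.80 to 0.92.

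The split between higher and lower members depended on how the libraries were scaled. With library totals that leave out genes of the mitochondrial genome, 17 members were higher and 10 lower, and of all genes 20.5% were higher and 12.5% lower. The 14 higher members and 10 of the 17 lower members were shared with the deposited scaling. Without cKO replicate 2 there were 13 higher and 11 lower members, and of all genes 15.3% were higher and 15.5% lower. All 31 called members kept their direction under each of the 14 alternatives tried, and 17 of them, 7 higher and 10 lower, stayed past the threshold in all 14.

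Taken as one level per heart, the 76 members summed to 2202, 2447 and 2206 FPKM in the Ctrl hearts against 2190, 2087 and 2121 FPKM in the cKO hearts. Each cKO sum was below each Ctrl sum, but the closest pair differed by less than the spread within Ctrl. The mean was 2285 ± 140 FPKM in Ctrl and 2133 ± 52.5 FPKM in cKO, or 93.3%. As a share of all FPKM the order was the other way round, with 0.473%, 0.487% and 0.485% in Ctrl and 0.524%, 0.523% and 0.510% in cKO. As a share of the FPKM outside the mitochondrial genome the groups overlapped, with 0.812%, 0.841% and 0.803% in Ctrl and 0.845%, 0.784% and 0.813% in cKO. The direction of the combined level thus depended on the denominator.

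**Figure D2:**
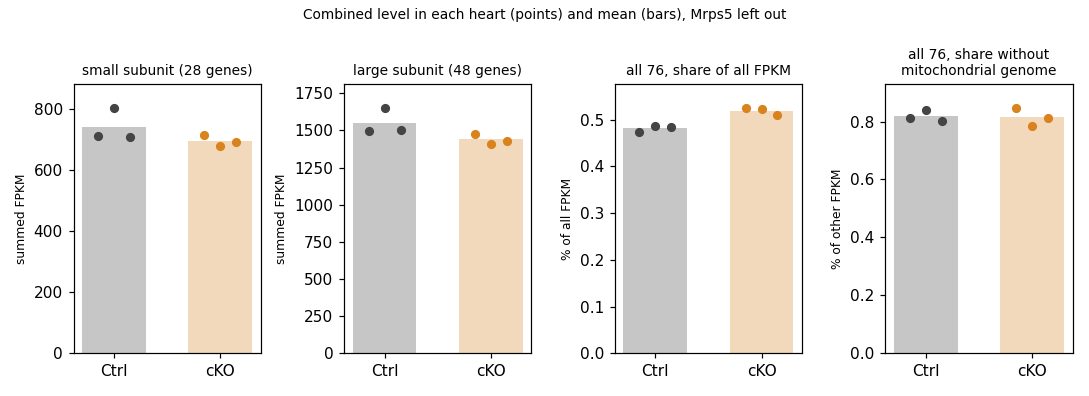
Combined level of the members other than *Mrps5* in each heart (points) and its mean (bars): summed FPKM of the 28 small and 48 large subunit genes, then the share of all 76 in all FPKM and in the FPKM outside the mitochondrial genome. The sums are lower in cKO, at 93.9% (small) and 93.0% (large) of Ctrl, the share of all FPKM is higher, and the last panel overlaps.

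The small and large subunit were compared next. Among the 28 small subunit genes by symbol 4 were higher and 6 lower (35.7% called), with a median log2 fold change of 0.0012. Among the 48 large subunit genes 10 were higher and 11 lower (43.8% called), with a median of -0.024. Of all genes tested 33.3% were called, and 41.8% of those at or above the level of the lowest tested member. The shares called lie near these backgrounds and are no result about the subunits. The small subunit sum went from 738.5 ± 53.7 to 693.7 ± 18.7 FPKM and the large subunit sum from 1547 ± 86.7 to 1439 ± 34.0 FPKM. The large subunit median was positive with median-of-ratios scaling (0.00063) and with scaling that leaves out the mitochondrial genome (0.057), where the small subunit median was 0.085. Symbols and places in the ribosome differ for 3 genes, since MRPS18A and MRPS30 sit in the large subunit and MRPS36 in neither. With the genes placed by structure, 25 small subunit genes gave 4 higher and 5 lower (36.0% called, median -0.013). The 50 large subunit genes gave 10 higher and 11 lower (42.0% called, median 0.035). The difference between subunits was not tested. Its sign changed with the placing of these genes.

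*Mrps18b* showed the largest increase. It measured 4.95, 5.48 and 4.97 FPKM in the Ctrl hearts against 12.0, 9.53 and 10.5 FPKM in the cKO hearts. All cKO hearts lay well above all Ctrl hearts, and the mean rose from 5.13 ± 0.301 to 10.7 ± 1.22 FPKM, to 208% of Ctrl. This is a log2 fold change of 0.92 (SE 0.095, limma adjusted p 0.00145). The gene (chromosome 17, 35910379 to 35916389, minus strand) is 1 of 3 mammalian relatives of bacterial ribosomal protein S18. The others differed less: *Mrps18a* went from 15.9 ± 0.459 to 17.4 ± 1.05 FPKM (0.12, limma adjusted p 0.238) and *Mrps18c* from 13.7 ± 1.20 to 14.8 ± 0.319 FPKM (0.11, limma adjusted p 0.343), with overlapping groups. The lowest of the 3 paralogs in FPKM in Ctrl hearts was thus the one that rose, and in FPKM it remained below the other 2 in cKO. This order rests on the gene lengths used, 2089 bases for *Mrps18b* and 1076 for *Mrps18c*. In reads, *Mrps18b* was above *Mrps18c* in each cKO heart (423, 465 and 551 against 276, 367 and 395). A difference between the paralogs was not tested.

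*Mrps10*, the small subunit relative of bacterial S10, measured 2.55, 2.77 and 2.36 FPKM in the Ctrl hearts against 4.47, 4.67 and 3.78 FPKM in the cKO hearts. The groups did not overlap, and the mean rose from 2.56 ± 0.204 to 4.31 ± 0.467 FPKM (0.57, SE 0.092, limma adjusted p 0.00505). *Mrps34* and *Mrps22*, which are found only in mitochondrial ribosomes and are mutated in human mitochondrial disease, rose by 0.42 (limma adjusted p 0.0267) and 0.30 (limma adjusted p 0.0311). The exons of *Mrps34* share 63.4% of their bases with *Mapk8ip3* on the opposite strand, which was at 6.41 ± 0.452 and 7.29 ± 1.70 FPKM (limma adjusted p 0.469). Whether counting used the strand was not stated, so that reads of such a pair cannot be assigned with certainty. These 4 were all the small subunit genes that rose.

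Among large subunit genes *Mrpl19*, the relative of bacterial L19, showed the largest increase. It measured 4.25, 5.24 and 4.67 FPKM in the Ctrl hearts against 7.48, 8.93 and 7.01 FPKM in the cKO hearts. No cKO heart came near the Ctrl range, with means of 4.72 ± 0.496 and 7.81 ± 0.999 FPKM (0.62, SE 0.108, limma adjusted p 0.0065). *Mrpl52*, found only in mitochondria and shown above with an ETS match, measured 31.3, 30.1 and 29.2 FPKM in the Ctrl hearts against 49.6, 39.7 and 43.4 FPKM in the cKO hearts. The cKO hearts differed more among themselves than the Ctrl hearts, and all were higher, with a change of 0.53 (SE 0.095, limma adjusted p 0.00691).

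The other 8 large subunit genes that rose were *Mrpl24*, *Mrpl47*, *Mrpl20*, *Mrpl15*, *Mrpl57*, *Mrpl40*, *Mrpl54* and *Mrpl38*. *Mrpl24* and *Mrpl47* belong to the 5 genes listed for the exit of the peptide tunnel, where the new protein leaves the ribosome, and rose from 20.8 ± 1.87 to 29.8 ± 2.98 FPKM (0.50) and from 4.94 ± 0.234 to 7.40 ± 1.21 FPKM (0.49). *Mrpl24* shares 26.3% of its exon bases with *Rrnad1* on the opposite strand, at 1.18 ± 0.154 and 1.14 ± 0.182 FPKM (limma adjusted p 0.857). *Mrpl47* shares 10.2% with *Actl6a*, at 4.70 ± 0.358 and 5.46 ± 0.305 FPKM (limma adjusted p 0.123), and 13.9% with *Ndufb5*, which fell from 52.8 ± 3.21 to 37.0 ± 1.23 FPKM (-0.50, limma adjusted p 0.00377), both on the opposite strand. The other 3 of that list (*Mrpl22*, *Mrpl23* and *Mrpl45*) were not called, at -0.25, 0.19 and -0.05. *Mrpl20* and *Mrpl15*, relatives of bacterial L20 and L15, rose to 140% and 134% of Ctrl. *Mrpl40* and *Mrpl38*, proteins of the central protuberance at the top of the large subunit, rose to 129% and 123% of Ctrl, while *Mrpl18* of the same list of 7 fell. *Mrpl54*, placed in the stalk list, rose from 45.3 ± 3.52 to 57.5 ± 2.04 FPKM, whereas *Mrpl10*, *Mrpl11* and *Mrpl12*, which form or hold the stalk that receives elongation factors, were not called, at 0.11, -0.17 and 0.06. *Mrpl57*, a protein found only in mitochondria, rose to 131% of Ctrl.

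**Figure D3:**
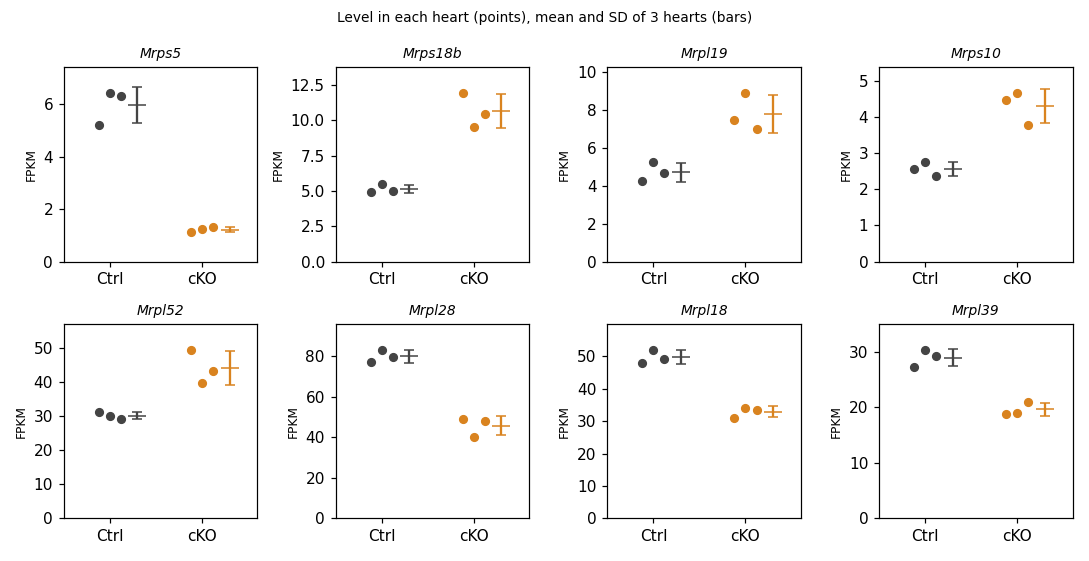
FPKM in each heart (points) with mean and SD of 3 hearts (bars) for *Mrps5*, the 4 members called higher and the 3 called lower with the largest changes on the log2(FPKM + 1) scale, an order that can differ from that of the FPKM ratio. In each panel the Ctrl and cKO points do not overlap; *Mrps5* goes from 5.99 to 1.22 FPKM, *Mrps18b* from 5.13 to 10.7 FPKM and *Mrpl28* from 80.0 to 45.8 FPKM.

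*Mrpl28*, the relative of bacterial L28, showed the largest decrease after *Mrps5*. It measured 77.0, 83.3 and 79.7 FPKM in the Ctrl hearts against 48.9, 40.3 and 48.1 FPKM in the cKO hearts. Ctrl hearts were close to each other and all cKO hearts were far lower, at 80.0 ± 3.14 and 45.8 ± 4.72 FPKM or 57.2%. This is a log2 fold change of -0.80 (SE 0.093, limma adjusted p 0.00198). The gene lies on chromosome 17 (26123520 to 26126613, plus strand).

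*Mrpl18*, a protein of the central protuberance, measured 47.8, 52.0 and 49.0 FPKM in the Ctrl hearts against 30.9, 34.1 and 33.5 FPKM in the cKO hearts. Its groups were far apart, at 49.6 ± 2.16 and 32.8 ± 1.68 FPKM (-0.58, SE 0.074, limma adjusted p 0.00249). *Mrpl18* shares 10.1% of its exon bases with *Tcp1* on the opposite strand, a gene of the cytosolic chaperonin, which rose from 25.3 ± 0.885 to 36.0 ± 1.42 FPKM (0.49, limma adjusted p 0.00322). The 2 neighbours thus went opposite ways. *Mrpl39*, a protein found only in mitochondria, measured 27.3, 30.4 and 29.2 FPKM in the Ctrl hearts against 18.8, 19.0 and 21.1 FPKM in the cKO hearts. It fell in all 3 cKO hearts to 67.7% of Ctrl (-0.54, SE 0.079, limma adjusted p 0.0036).

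Further large subunit genes fell to about the same extent. *Mrpl50* fell to 69.3%, *Mrpl14* to 70.2% and *Mrpl42* to 69.8% of Ctrl, from 35.7 ± 1.33, 106 ± 6.90 and 74.5 ± 10.0 FPKM. *Mrpl14*, which faces the small subunit in the bacterial ribosome, shares 11.2% of its exon bases with *Tmem63b*, which fell as well (-0.56, limma adjusted p 0.0029). *Mrpl30* and *Mrpl16*, which have bacterial counterparts, both fell by 0.36 (limma adjusted p 0.0168 and 0.0132). *Mrpl49*, *Mrpl41* and *Mrpl9* fell by 0.35, 0.33 and 0.25, close to the threshold (limma adjusted p 0.0481, 0.0353 and 0.046).

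In the small subunit *Mrps21*, the relative of bacterial S21 and the member with the highest mean level, fell the most. It measured 143.5, 171.6 and 140.7 FPKM in the Ctrl hearts against 108.3, 99.3 and 112.1 FPKM in the cKO hearts. Ctrl replicate 2 was the highest heart, and the lowest Ctrl heart was still above the highest cKO heart (-0.50, SE 0.101, limma adjusted p 0.0106). *Mrps36*, whose protein is now assigned to the 2-oxoglutarate dehydrogenase complex of the citric acid cycle, measured 52.0, 60.0 and 54.8 FPKM in the Ctrl hearts against 36.9, 43.3 and 40.1 FPKM in the cKO hearts. All cKO hearts were lower (-0.46, SE 0.091, limma adjusted p 0.00978). *Mrps35*, *Mrps15*, *Mrps25* and *Mrps31* fell by 0.30, 0.29, 0.26 and 0.24 (limma adjusted p 0.0251, 0.0488, 0.0292 and 0.0341). *Mrps25* shares 69.8% of its exon bases with *Nr2c2* on the opposite strand, which was at 1.24 ± 0.186 and 0.993 ± 0.107 FPKM (limma adjusted p 0.212). In all, 18 tested members overlap another tested gene in position, of which 3 were higher and 4 lower (38.9% called). Among the 58 without such an overlap 11 were higher and 13 lower (41.4% called). Both shares lie near the 41.8% called among genes at or above the level of the lowest tested member. They are no result about the members. Processed pseudogene copies of *Mrps36*, *Mrpl48* and *Mrpl23* lay between 0 and 2.29 FPKM in a heart, and reads could be split between such a copy and its gene.

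Calls near the threshold were lost when single hearts were left out. For *Mrpl49*, *Mrpl41*, *Mrps35*, *Mrps15*, *Mrps25*, *Mrpl9* and *Mrps31* the call was lost when any of at least 5 of the 6 hearts was left out, with limma adjusted p of up to 0.14 over the alternatives. Among the higher members *Mrpl20* lost its call without Ctrl replicate 3 (limma adjusted p 0.0559 at most) and *Mrpl47* without Ctrl replicate 1 or 3 (0.0537 at most). *Mrps34*, *Mrpl57*, *Mrpl54*, *Mrps22* and *Mrpl38* lost theirs without any of at least 4 hearts, with limma adjusted p of up to 0.101. The direction stayed the same in each of these.

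The level of the members was set beside their change, without a test. By mean FPKM, the lowest of 3 bins of members (26 genes, 3.35 to 13.7 FPKM) held 7 higher and 3 lower, the middle bin (25 genes) 4 higher and 5 lower, and the highest bin (25 genes, 30.3 to 129 FPKM) 3 higher and 9 lower. Of all genes tested, at any level, 16.3% were called higher and 17.0% lower. No such share was at hand for all genes within the range of each bin. The median gene length was 4700.5 bases in the lowest bin, 2255 in the middle and 1213 in the highest. Level and length were thus not separated. The members called lower had a median level of 41.2 FPKM, those called higher 14.4 FPKM and those not called 17.1 FPKM. Across the 76 members, which share the 6 libraries and are no independent replicates, Spearman's rho of log2 fold change with mean FPKM was -0.37, and across all genes tested it was 0.026. With gene length the rho was 0.23 across members and -0.04 across all genes. The pseudocount of 1 shrinks the changes of low members, which include several of those that rose.

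**Figure D4:**
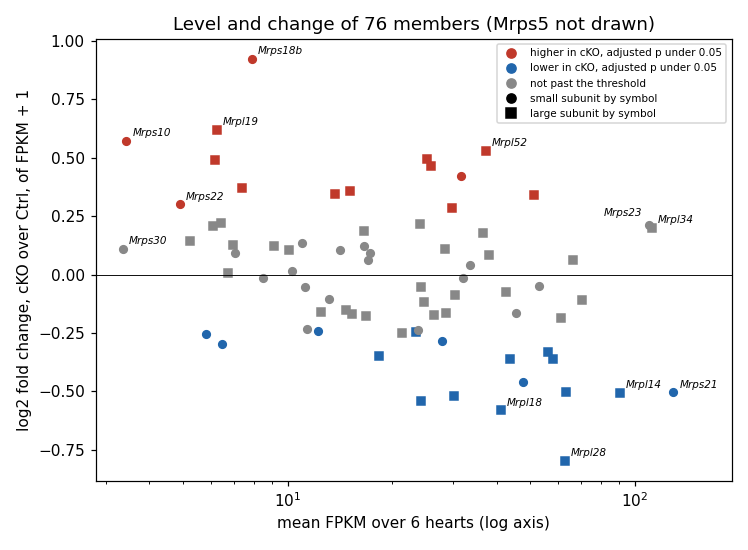
Log2 fold change of FPKM + 1 (cKO over Ctrl) against mean FPKM over the 6 hearts (log axis) for the 76 members; colours give the call and shapes the subunit by symbol. Of the 14 red points 7 lie in the lowest of 3 bins of level, and of the 17 blue points 9 lie in the highest, with *Mrps21* (129 FPKM) the highest and *Mrps30* (3.35 FPKM) the lowest in level. The bins also differ in gene length, and calls of all genes at the same levels are not shown.

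FPKM of the members spread over a 38.5-fold range. The highest were *Mrps21* at 129, *Mrpl34* at 112 and *Mrps23* at 110 FPKM over the 6 hearts. The lowest were *Mrps30* at 3.35, *Mrps10* at 3.43 and *Mrps22* at 4.90 FPKM. Part of this range lies in the gene length by which FPKM is divided. *Mrps21* has 739 bases and had 1355 to 2637 reads in a heart, while *Mrps10* has 8079 bases and had 393 to 881 reads. *Mrpl34* went from 105 ± 11.0 to 120 ± 9.75 FPKM with overlapping groups (limma adjusted p 0.177). *Mrps23* measured 95.4, 107.7 and 102.6 FPKM in the Ctrl hearts against 123.3, 112.6 and 118.1 FPKM in the cKO hearts, where no heart overlapped and the adjusted p was 0.0813 (limma). *Mrps30*, whose protein belongs to the large subunit, was at 3.19 ± 0.142 and 3.52 ± 0.0707 FPKM (limma adjusted p 0.246). *Mrpl53*, in the list of the stalk, was listed at 0 in all 6 hearts and was not tested. Its span (chromosome 6, 83109040 to 83109939) lies inside that of the gene *Gm42688*, itself at 0.0265 to 0.114 FPKM.

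Proteins with a bacterial counterpart and those found only in mitochondria were then set side by side, counting all 3 S18 relatives with the former. Of 47 members with a counterpart 7 were higher and 8 lower (31.9% called), and of 28 without one 7 were higher and 8 lower (53.6% called), beside 33.3% of all genes tested and 41.8% of those at or above the level of the lowest tested member. The first share lies near the background of all genes. The median log2 fold changes of the classes were 0.04 and -0.064. Both directions were thus held by both classes, and the difference in the share called was not tested. By chromosome the members were scattered. Chromosome 17 held 8, with 3 higher (*Mrps18b*, *Mrps10* and *Mrps34*) and 3 lower (*Mrpl28*, *Mrpl18* and *Mrpl14*), and chromosome 11 held 11, of which 1 was higher and 0 were lower (limma; at an unadjusted p under 0.05, 2 and 1; by voom, 1 and 0). None of the 4 members on chromosome 5 or the 6 on chromosome 7 was called by limma or voom, and 1 on each had an unadjusted p under 0.05.

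The other genes of mitochondrial translation were read from lists outside the symbol rule. Of the 5 ribosomal proteins with other symbols 0 were called in either direction by limma, beside 33.3% of all genes tested. An unadjusted p under 0.05 was seen for 2 of them, and 1 (*Chchd1*, higher) was called by voom on the recovered reads. *Dap3*, the GTP-binding protein of the small subunit, went from 15.3 ± 0.433 to 13.1 ± 1.26 FPKM (-0.21) and *Ptcd3* from 13.1 ± 1.72 to 11.4 ± 0.888 FPKM (-0.17). *Chchd1* was at 71.5 ± 7.15 and 86.4 ± 5.77 FPKM (0.27), *Aurkaip1* at 44.2 ± 3.69 and 44.3 ± 2.95 FPKM and *Gadd45gip1* at 9.84 ± 0.980 and 9.58 ± 0.442 FPKM. PTCD3 and MRPS24 lie with MRPS5 at the mRNA entry site, and *Mrps24* went from 47.9 ± 3.02 to 42.8 ± 4.48 FPKM (-0.16, limma adjusted p 0.238), with overlapping groups.

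Of 16 mitochondrial translation factors and associated proteins 0 were higher and 1 was lower (limma; at an unadjusted p under 0.05, 0 and 5; by voom, 0 and 1), with a median of -0.12. *Tufm*, the elongation factor that brings aminoacyl-tRNA to the ribosome, measured 84.9, 101.8 and 101.3 FPKM in the Ctrl hearts against 63.6, 70.4 and 70.5 FPKM in the cKO hearts. Every cKO heart was below every Ctrl heart (-0.49, SE 0.097, limma adjusted p 0.0104). Of 27 genes for ribosome assembly and rRNA modification 2 were higher and 0 lower by limma, with a median of -0.0013. At an unadjusted p under 0.05 the counts were 3 and 3, and by voom 3 and 0. Over all genes tested limma called 33.3% in either direction, a larger share than in the list of factors or of assembly genes. *Noa1*, a GTPase needed for ribosome assembly, measured 5.23, 5.45 and 5.23 FPKM in the Ctrl hearts against 7.52, 6.68 and 7.00 FPKM in the cKO hearts. The groups were well apart (0.35, SE 0.071, limma adjusted p 0.0106). *Mrm1*, an rRNA methyltransferase, rose from 6.78 ± 0.368 to 8.86 ± 1.04 FPKM (0.34, limma adjusted p 0.0328), a call that was lost without any of 5 hearts (adjusted p up to 0.106).

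**Figure D5:**
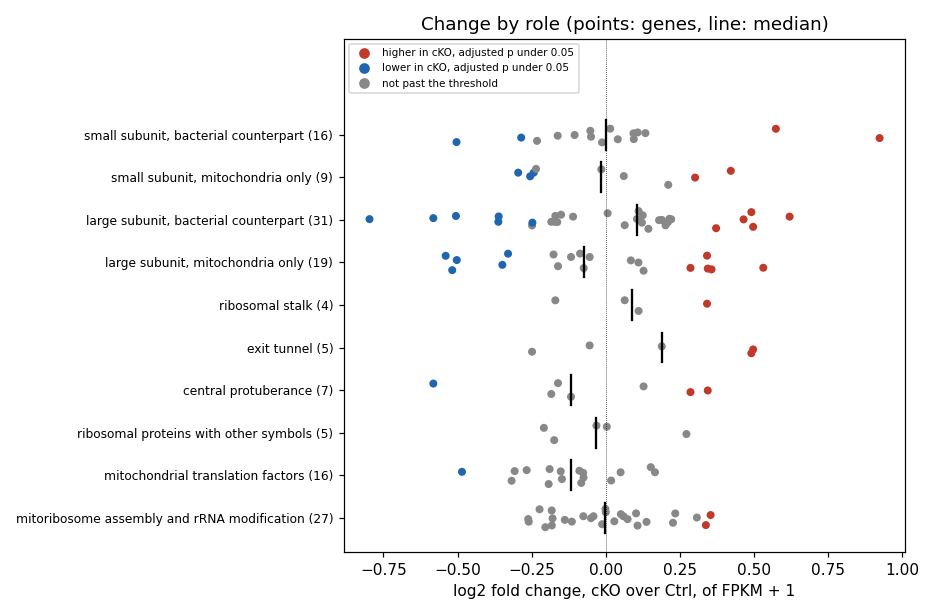
Log2 fold change of FPKM + 1 (cKO over Ctrl) by role, each point a gene and the black line the median; the first 4 rows place members by structure, and the last 3 rows are genes outside the symbol rule. Members called higher (red) and lower (blue) occur in each of the first 4 rows, 1 translation factor (*Tufm*) is lower and 2 assembly genes are higher.

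Markers of cell types also differed between the groups. Over all genes tested 16.3% were called higher and 17.0% lower. Of 8 cardiomyocyte markers 6 were lower in cKO, with sums of 16900 to 20700 FPKM in Ctrl and 9680 to 16400 FPKM in cKO. *Actc1* (4750 ± 1130 and 4340 ± 1940 FPKM) and *Myh6* (3610 ± 315 and 2460 ± 834 FPKM), which weigh heavily in these sums, were not called. Of 5 endothelial markers 4 were lower, with sums of 114 to 132 and 74.6 to 87.2 FPKM. Of 6 fibroblast markers 2 (*Col1a1* and *Postn*) were higher and 1 (*Dcn*) lower, with sums of 150 to 174 and 138 to 153 FPKM. Of 6 macrophage and leukocyte markers 1 was lower and 1 not tested, with sums of 244 to 324 and 188 to 279 FPKM, and of 5 smooth muscle and pericyte markers 1 was higher, 1 lower and 1 not tested, with sums of 146 to 165 and 94.4 to 121 FPKM. The 4 erythroid markers summed to 869 to 2030 and 577 to 1570 FPKM. Of these and of the 4 atrial markers 0 were called by limma or voom, and 0 had an unadjusted p under 0.05. The 5 skeletal muscle markers summed to 610 to 764 and 1040 to 2690 FPKM, nearly all of it from *Acta1* and *Ckm*. *Acta1*, which the paper uses as a marker of cardiac hypertrophy, was higher (299 ± 62.5 and 1400 ± 872 FPKM). *Ckm* was lower (395 ± 43.0 and 295 ± 5.4 FPKM). The other 3, the skeletal myosin genes *Myh1*, *Myh2* and *Myh4*, were not tested. They reached at most 0.00872 FPKM in a heart, with *Myh1* at 0 in every heart. The part of these shifts in the values of the members was not tested.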

How the data were processed

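RNA of 3 Ctrl and 3 cKO mouse hearts was sequenced from poly-A selected libraries. Per the labels, reads were aligned with HISAT2 2.0.5 and counted with featureCounts 1.5.0-p3, and the authors computed the deposited FPKM from count and gene length (the length is deposited as an other, gene-level value). The labels name another build, but 53585 of the 54495 gene identifiers shared with GENCODE M21, all on the same chromosome, had identical positions, so coordinates are GRCm38. Strand use and multiple alignments are not stated. FPKM and length gave whole reads for 100% of values (largest deviation 0.0002 of a read); the library sizes implied were 0.913 to 0.98 times the totals in Ctrl and 1.06 times in cKO, so the deposited values had been scaled between libraries. Groups and replicate numbers came from the sample titles.

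The 12944 genes averaging 0.5 FPKM or more were tested as log2(FPKM + 1) with limma 3.58.1 in R 4.3.3 (lmFit, eBayes with trend, two-sided, no covariates) and Benjamini-Hochberg adjustment over all of them, at a threshold of 0.05. This scale understates the change of low genes. The exact permutation test over hearts was not used, since 3 against 3 allow no p below 0.1. The fit was tested on simulated data. Members, gene lists and tests were chosen with earlier results of these data known. Named are *Mrps5*, all called members, the 3 highest and lowest in level, the S18 paralogs, *Mrps24*, *Mrps30*, *Mrps36* and, in other lists, called genes and all ribosomal proteins with other symbols. Uncalled exit tunnel and stalk members were named after their values were seen. Alternatives were another pseudocount (0.1), no filter or a minimum of 1 FPKM, median-of-ratios scaling, scaling without mitochondrial genome genes, eBayes without trend, voom on the recovered reads, a replicate block and leaving out each heart. *Ict1* appears as the member *Mrpl58*, and the translation factor listed as *Mtrfr* under the symbol *2810006K23Rik*. Errors given as ± are SD over 3 hearts. The titles number the replicates without saying how the animals were chosen, so p-values measure the spread between these samples. The 5 pseudogene rows were left out by the rule.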

Additional observations from a re-analysis of the deposited data

How the results depend on the processing

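The counts of 14 higher and 17 lower members were within 1.5 times of these values under a pseudocount of 0.1, both other filters, median-of-ratios scaling, eBayes without trend and voom on the recovered reads (11 to 14 higher, 13 to 17 lower). Of all genes tested, these alternatives called 16.1% to 18.2% higher and 15.5% to 18.6% lower, but 5.95% and 6.26% with no filter. With scaling that leaves out the mitochondrial genome, 10 members were lower, and the medians were 0.085 for the small and 0.057 for the large subunit; the denominator differs by construction. Leaving out 1 heart gave 8 to 13 higher and 10 to 12 lower members. The calls over all genes fell as well, to between 10.8% and 15.3% higher and between 11.0% and 15.5% lower. With all hearts these shares were 16.3% and 17.0%. The higher count moved by over 1.5 times without Ctrl replicate 1 (9), Ctrl replicate 3 (8) or cKO replicate 1 (9), and the lower count without Ctrl replicate 2 (10), Ctrl replicate 3 (10), cKO replicate 1 (10), cKO replicate 2 (11) or cKO replicate 3 (11). The large subunit median ranged from -0.09 (without cKO replicate 2) to 0.0057 (without cKO replicate 3), and was -0.087 without Ctrl replicate 1. *Mrps5* stayed past the threshold throughout, from -1.59 to -2.25, the last with voom. Of 1064 comparisons of a named gene with an alternative, 965 kept call and direction, 95 lost the call, 4 gained one and 0 reversed.

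Same-numbered hearts come from different animals, and their deviations from the group means correlated at -0.0554, 0.175 and -0.0148. Differently numbered hearts correlated at -0.14 to 0.164. The numbers thus showed no clear pairing, but with 3 hearts a group these values cannot exclude one. The methods call the controls littermates without saying which hearts belong together. With the replicate number as a block, 11 members were higher and 12 lower, beside 14.5% and 15.3% of all genes. *Mrps5* stayed at -1.65.

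Each tested member other than *Mrps5* had at least 197 reads in each heart. The smallest change of a called member was 0.24 in size, and smaller changes were not called with 3 hearts a group.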
